A study of Schizosaccharomyces pombe with 6 samples.

Results

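The genes described here encode the proteins of the small (40S) subunit of the cytosolic ribosome of the fission yeast Schizosaccharomyces pombe. They were taken by name, as the genes whose symbol is rps followed by a number and that have a probe set (a group of short probes for 1 transcript) of their own on the array. Of the 2896 S. pombe genes measured in this way, 45 were members, and they fall into 27 families. A family holds the paralogues, gene copies that encode the same or nearly the same protein: rps1401 and rps1402 both encode Rps14. The RefSeq annotation ASM294v3 lists 55 nuclear genes by this naming rule, and no value of their own is given here for the other 10.

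The small subunit holds the messenger RNA and reads its codons against the anticodons of the transfer RNAs. Its proteins surround the 18S ribosomal RNA and are needed in equal amounts, and in yeasts most of them are encoded by a pair of genes. Ribosomal protein messengers are among the most abundant in growing cells, and the TOR and protein kinase A pathways tie their level to the supply of nutrients.

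Expression was measured on 6 Affymetrix arrays, 3 from YEPME and 3 from YEPD, labelled as biological replicates 1 to 3 of each medium. Separate YEPD cultures of the h+ strain YHL6381 and the h- strain SPQ-01 grew at 30 °C until the OD600 was 5.0, and equal parts were then mixed and held for 90 min in YEPME or in new YEPD. The series concerns sexual flocculation, in which cells of opposite mating type clump together, and the comparison asks how transcript levels differ between the flocculating and the non-flocculating mixture. The sample labels pair the code YSM with YEPME and YSD with YEPD, whereas the design text pairs them the other way round. Groups were assigned by the medium in the sample labels, and all directions below would turn if the codes of the design text held. The YEPME samples carry a strain label that says diploid, although the rest of their labels speak of mixed cultures. Values are log2 signals after RMA, so a difference of -1 is a halving of the signal.

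In YEPME, 7 of the 45 small-subunit genes fell. In 5 families 1 copy fell and no other measured copy did, and in the rps10 family both copies fell. rps1401 fell to 0.482 of its YEPD signal, rps1001 and rps1002 to 0.662 and 0.704, and rps2401, rps401, rps002 and rps2601 to between 0.768 and 0.809. No member rose, and 0 were higher at an unadjusted p under 0.05, against 217 of all 2896 genes. These calls come from limma with replicate 1 of both media set apart as a block, at a Benjamini-Hochberg adjusted p under 0.05 over all 2896 genes. In that fit 1.31% of all genes fell and 0.76% rose, against 15.6% and 0% of the members. An eighth gene, rps1901, had a difference close to that of rps2601 (0.81 of its YEPD signal) and was lower in all 3 replicate pairs, but missed the threshold of this fit (adjusted p = 0.0964). The other 37 members had mean differences of -0.08 to 0.05 on the log2 scale.

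**Figure D1:**
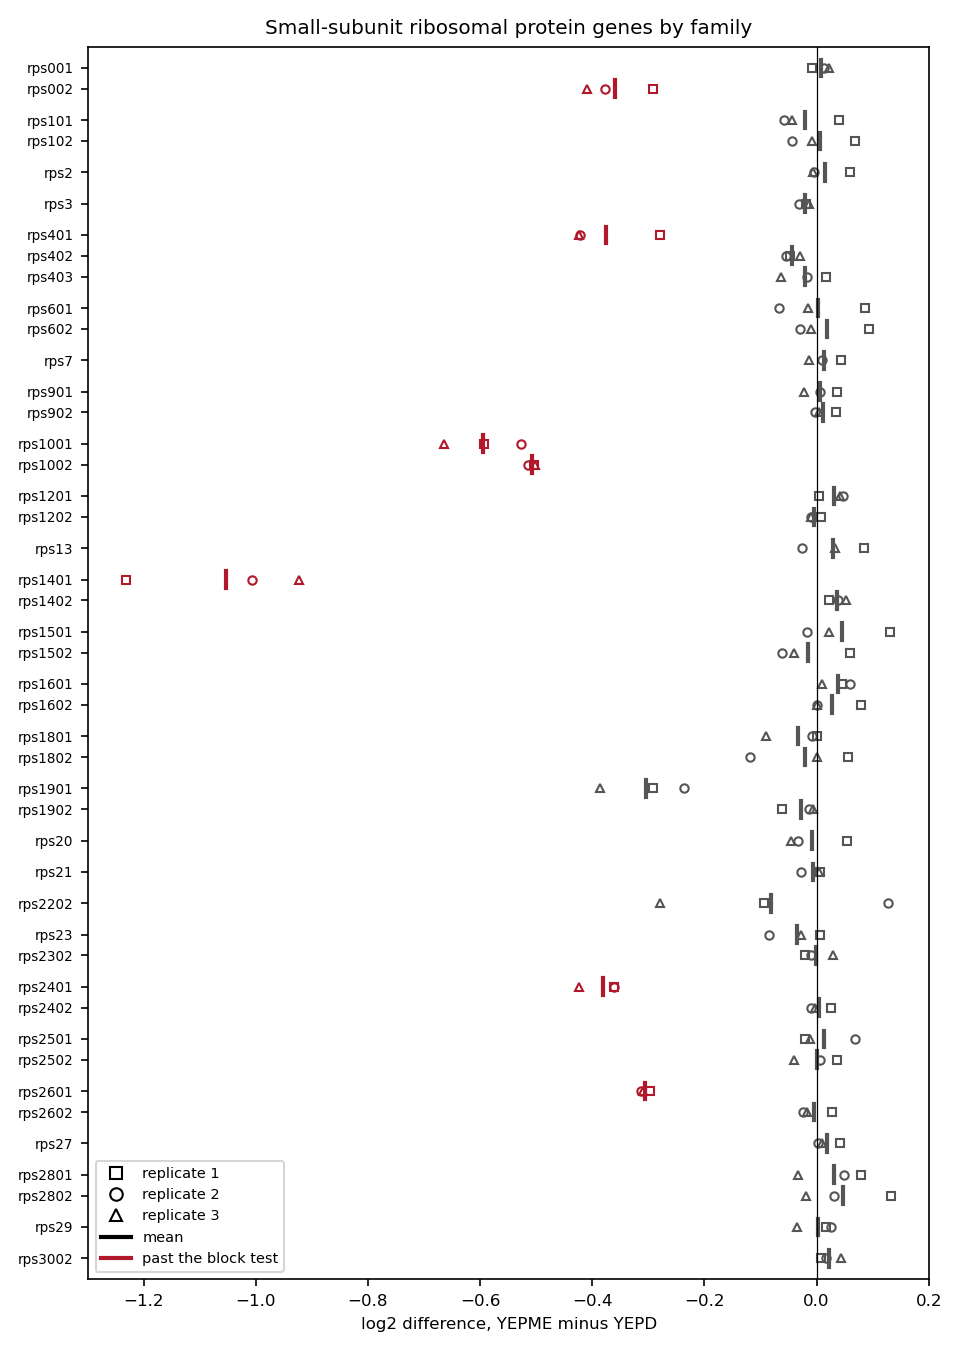
Log2 difference in signal between YEPME and YEPD for each of the 45 small-subunit genes, grouped by family. Squares, circles and triangles are the pairs of replicate 1, 2 and 3, bars are means, and red marks the 7 genes past the test with replicate 1 as a block; 8 genes stand left of -0.2 in every pair, and the mean of each of the other 37 lies between -0.08 and 0.05.

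The block matters for these calls. The arrays of replicate 1 stood apart from the other 4 in both media. With no block, limma called 0 members and 0% of all genes. At an unadjusted p under 0.05 it had 7 members, all lower, against 32 of all 2896 genes, 17 of them lower. With the replicate number as a block it also called 0 members and 0% of all genes (8 members at an unadjusted p under 0.05, the lowest adjusted p being 0.177). Within replicates 2 and 3 alone, limma called 8 of the 45 members lower, the 7 above and rps1901, and 0 higher, against 8.7% of all genes lower and 6.91% higher. The block fit lost all 7 calls without YEPME replicate 2, YEPME replicate 3, YEPD replicate 2 or YEPD replicate 3, and called 0 of all genes. Each time 8 members had an unadjusted p under 0.05, a count not taken for all genes. The fit within replicates 2 and 3 kept 1 call without YEPD replicate 2 or YEPD replicate 3, against 19 and 20 of all 2896 genes. A measure that uses no model gave the same 8 genes: their 3 YEPME values all lay below their 3 YEPD values. Of all genes 2.94% did so, against 17.8% of the members, and 2.76% of all genes lay wholly above, against 0 members. In mixed cultures, fewer cells of a kind and less RNA per cell cannot be told apart.

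The platform of the small subunit, where the messenger RNA leaves, holds Rps14 and Rps26. Rps14 binds close to the 3′ end of the 18S ribosomal RNA and is needed for that RNA to mature. rps1401 (SPAC3H5.05C) had 11.40, 11.67 and 11.68 in YEPME replicates 1 to 3, against 12.63, 12.68 and 12.60 in YEPD. The highest YEPME array lay more than 0.9 below the lowest YEPD array, and this was the largest fall of any member, -1.05 ± 0.07 (SE, limma with the block, adjusted p = 0.0226). Its paralogue rps1402 (SPBC18H10.13) had 13.93, 13.54 and 13.51 in YEPME, against 13.91, 13.50 and 13.45 in YEPD. The media overlapped for rps1402, with a difference of 0.04 ± 0.04 and a 95% interval of -0.07 to 0.15.

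Rps26 lies at the exit channel and touches the messenger upstream of the start codon. rps2601 (SPAC806.03C) had 13.33, 13.21 and 13.23 in YEPME, against 13.63, 13.53 and 13.54 in YEPD. The 3 pairs gave almost the same fall, -0.30, -0.31 and -0.31, and the mean difference was -0.31 ± 0.04 (adjusted p = 0.0404). rps2602 (SPAC1805.11C) had 14.09, 13.91 and 13.92 in YEPME and 14.06, 13.93 and 13.93 in YEPD, and its interval ran from -0.11 to 0.10.

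Rps0 belongs to the family of the mammalian laminin receptor precursor and sits on the solvent side of the subunit. rps002 (SPAPJ698.02C) had 13.61, 13.33 and 13.33 in YEPME, against 13.90, 13.70 and 13.74 in YEPD. Every YEPME array was below every YEPD array, and the difference was -0.36 ± 0.05 (adjusted p = 0.0404). rps001 (SPBC685.06) had 13.78, 13.77 and 13.79 in YEPME and 13.79, 13.75 and 13.77 in YEPD, a spread of less than 0.04 over all 6 arrays.

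Rps10 and Rps19 are proteins of the subunit's head. Rps10 lies at its beak, and in mammals ubiquitin is attached to it when ribosomes stall. rps10 was the family in which both measured copies fell. rps1001 (SPAC31G5.17C) had 12.85, 12.89 and 12.71 in YEPME, against 13.44, 13.42 and 13.37 in YEPD, a difference of -0.59 ± 0.06 (adjusted p = 0.0404). rps1002 (SPBP22H7.08) had 13.28, 13.25 and 13.28 in YEPME, against 13.78, 13.77 and 13.78 in YEPD, a difference of -0.51 ± 0.04 (adjusted p = 0.031). For both genes the gap between the media was larger than the spread within a medium. A probe set can also bind RNA of the other copy, and the part of this in the rps10 values was not tested.

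Rps19 is needed for the 18S ribosomal RNA to be cut to its final length, and its human counterpart is mutated in Diamond-Blackfan anaemia. rps1901 (SPBC21C3.13) had 13.86, 13.68 and 13.51 in YEPME, against 14.15, 13.92 and 13.90 in YEPD. The media did not overlap, but the YEPME arrays spread over 0.3, and the difference of -0.30 ± 0.06 passed within replicates 2 and 3 (-0.31 ± 0.06, adjusted p = 0.0365) and not with the block. rps1902 (SPBC649.02) had 13.54, 13.35 and 13.36 in YEPME and 13.60, 13.36 and 13.37 in YEPD, with an interval of -0.13 to 0.08.

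Rps4 and Rps24 belong to the body of the subunit. rps401 (SPBC19F8.08) had 13.46, 13.31 and 13.30 in YEPME, against 13.74, 13.73 and 13.72 in YEPD, a difference of -0.37 ± 0.05 (adjusted p = 0.0404). The YEPD arrays agreed to 0.02, and every YEPME array lay below them. The other copies overlapped between media: rps402 (SPBC21B10.10) had 13.73, 13.56 and 13.53 in YEPME and 13.78, 13.61 and 13.56 in YEPD. rps403 (SPAC959.07) had 13.58, 13.28 and 13.27 in YEPME and 13.56, 13.30 and 13.33 in YEPD. The intervals of the difference were -0.15 to 0.06 for rps402 and -0.13 to 0.09 for rps403.

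Rps24 takes part in early processing of the ribosomal RNA, and its human counterpart is also mutated in Diamond-Blackfan anaemia. rps2401 (SPAC17G6.06) had 13.44, 13.49 and 13.45 in YEPME, against 13.80, 13.85 and 13.87 in YEPD. Its arrays agreed to 0.08 within each medium, and the difference was -0.38 ± 0.04 (adjusted p = 0.0404). rps2402 (SPBC17G9.07) had 14.04, 13.67 and 13.66 in YEPME and 14.01, 13.67 and 13.66 in YEPD, with an interval of -0.10 to 0.11.

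**Figure D2:**
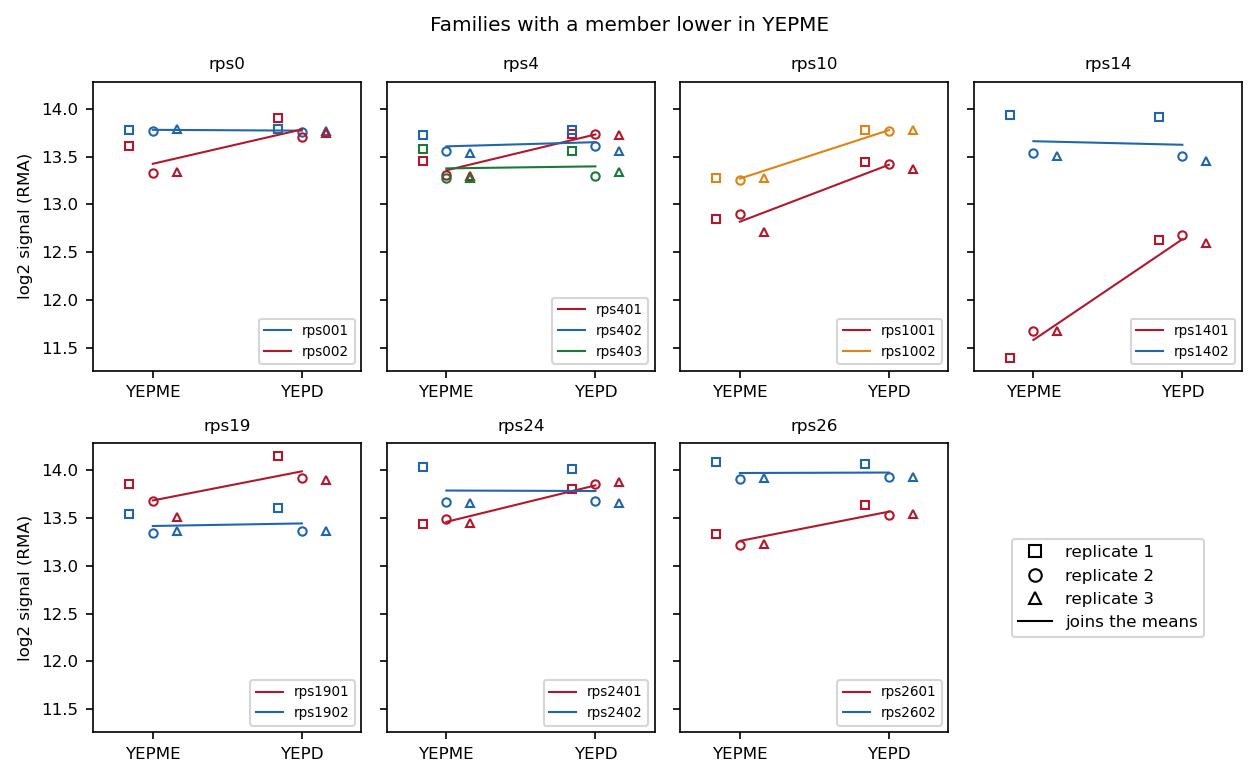
Log2 signal of every array for the 7 families with a member whose media do not overlap, YEPME on the left and YEPD on the right of each panel. Squares, circles and triangles are replicates 1, 2 and 3 and lines join the means; red and orange mark the lower genes, and blue and green their paralogues, which run nearly level.

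Of the 17 families with more than 1 measured copy, 6 held a single lower gene, rps10 held a pair of them and 10 held none, counted by media that do not overlap. The split can be read within each array as the log2 ratio of both copies, which removes whatever an array adds to both. Between probe sets the ratio itself has no meaning as a level, and its change between media is the measurement. The log2 ratio of rps1401 to rps1402 was -2.54, -1.87 and -1.83 in YEPME, against -1.29, -0.83 and -0.85 in YEPD, a change of -1.09 ± 0.14 (SD over 3 replicate pairs). The changes for rps2401 over rps2402, rps001 over rps002, rps401 over rps403 and rps401 over rps402 were -0.39 ± 0.04, 0.37 ± 0.08, -0.35 ± 0.05 and -0.33 ± 0.09. Those for rps2601 over rps2602 and rps1901 over rps1902 were -0.30 ± 0.02 and -0.28 ± 0.09. The change had the same sign in all 3 pairs for each of these 7 ratios. Single differences were -0.24 or lower in the lower genes and -0.06 to 0.05 in their paralogues, so no other sign was possible. The lower genes were taken for media that do not overlap, so the shared sign is no separate support for the split.

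Of the 19 paralogue pairs, 7 had ratios that did not overlap between media, against 25.5% of the 51 pairs of both ribosomal subunits. For such a pair the exact permutation test over 6 arrays (two-sided) gives 0.1, the smallest p that 3 arrays against 3 allow. rps1501 over rps1502 was among these 7 with a change of 0.06 ± 0.01, while rps2401 over rps2402 overlapped (exact p = 0.3) because the rps2402 signal was higher in replicate 1 of both media. A gap separated the pairs by size, which repeats the split of the single genes and is no separate support for it. The 7 largest changes were at least 0.28, and the remaining 12 were at most 0.09, that of rps1001 over rps1002 (-0.09 ± 0.07). The rps10 ratios overlapped between media (exact p = 0.2).

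**Figure D3:**
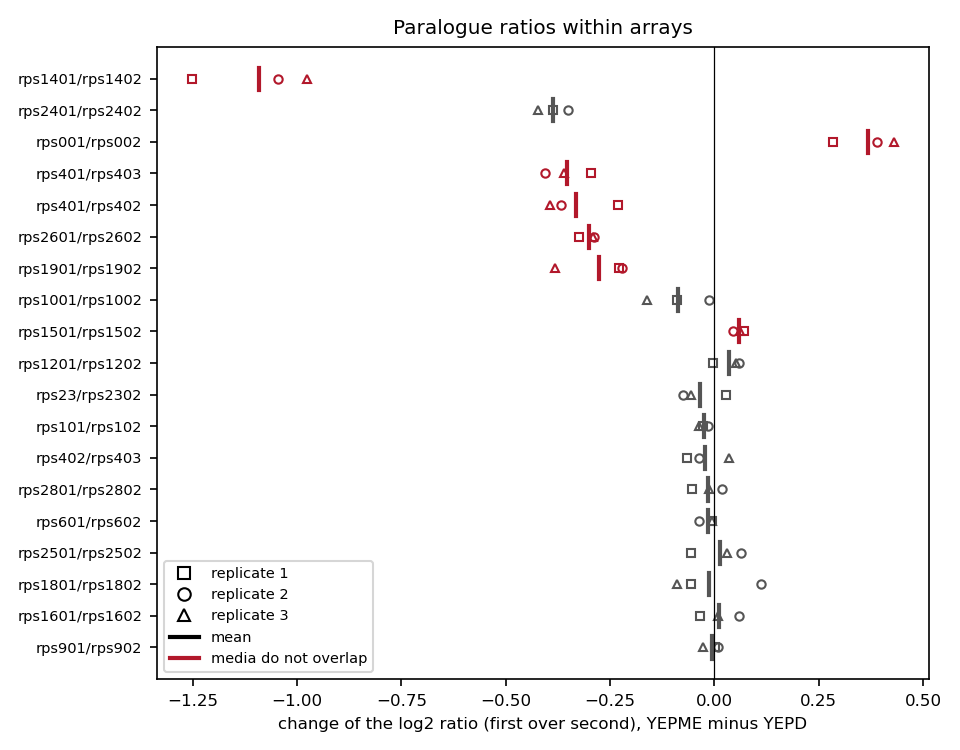
Change between YEPME and YEPD of the within-array log2 ratio of each of the 19 paralogue pairs, first gene over second. Squares, circles and triangles are replicate pairs 1, 2 and 3, bars are means, and red marks the 7 pairs whose ratios do not overlap between media; rps1401 over rps1402 stands at -1.09 and 12 pairs lie within 0.09 of 0.

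The other members moved little. Leaving out rps2202, the 36 genes outside the 8 above had differences of -0.04 to 0.05. Their 95% intervals in the block fit, from which all intervals above also come, stayed within -0.15 and 0.17. A fall of the size seen in rps2601 (0.31) lay outside each of these intervals. With no block the intervals were wider and some held such a fall, for example that of rps1402 (-0.43 to 0.51). The 8 single-copy genes were among the 36. Of these 8, rps3, for a protein at the messenger entry channel, had the lowest difference, -0.02 ± 0.04, and rps13 the highest, 0.03 ± 0.04. The others were rps2, at the entry channel as well, rps7, rps20 and rps29, both for head proteins, rps21 and rps27. Their intervals spanned -0.12 to 0.14 together.

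In the 10 families with several measured copies and no lower gene, the 20 genes differed by -0.04 to 0.05. Rps6, which S6 kinases phosphorylate in response to TOR signalling, is encoded by rps601 and rps602, with differences of 0.00 ± 0.05 and 0.02 ± 0.05. Rps23, which lies at the decoding centre, is encoded by rps23 and rps2302, with differences of -0.04 ± 0.04 and 0.00 ± 0.04. The Rps9 genes rps901 and rps902, for a protein at the messenger entry channel, differed by 0.01 ± 0.04 each. The remaining families were rps1, rps12, rps15, rps16, rps18, rps25 and rps28. Within replicates 2 and 3 the largest positive differences of any member were 0.05 for rps1402 and 0.04 for rps1201 (adjusted p = 0.431 and 0.367), followed by rps1601, rps3002, rps2501, rps001, rps2302, rps2801, rps27 and rps2802 with 0.04 to 0.01. After the 8 lower genes, the most negative differences there were -0.08 for rps2202 and -0.06 for rps1802, and neither passed (adjusted p = 0.634 and 0.374).

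rps2202 and rps3002 were measured without their paralogues. rps2202 (SPAC5D6.01), for a protein of the body, was the least reproducible member. It had 11.46, 12.55 and 12.32 in YEPME and 11.56, 12.42 and 12.59 in YEPD, with an interval of -0.30 to 0.14. A probe set annotated to both rps2202 and rps2201 had 13.45, 13.57 and 13.60 in YEPME, against 13.77, 13.90 and 13.82 in YEPD. Its media did not overlap, and it differed by -0.29 ± 0.05 in a limma block fit over every annotated probe set (2934, of which 1.26% fell; adjusted p = 0.0578).

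For Rps30, which lies near the decoding site, the probe sets disagreed. Both sets of rps3002 (SPBC19G7.03C) differed by 0.02, and a set shared by rps3001 and rps3002 had 13.66, 13.39 and 13.33 in YEPME and 13.73, 13.39 and 13.33 in YEPD. Another set annotated to the same genes had 13.29, 13.34 and 13.25 in YEPME, against 13.58, 13.61 and 13.60 in YEPD, a difference of -0.31 ± 0.05 (adjusted p = 0.0536 with the block and 0.0147 within replicates 2 and 3, where the shared rps22 set had 0.0175). Which copy the shared sets read was not tested.

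Replicate 1 differed from replicates 2 and 3 in the level of most members. With the block fit, 31 of the 45 were higher in replicate 1 and 1, rps2202, was lower, against 35% and 36% of all genes. The offset was largest for rps1402 (0.42) and rps21 (0.41) and was -0.96 for rps2202. Among the 8 lower genes 2 had a called offset, rps002 with 0.23 and rps1901 with 0.25, and among the other 37 members 30 had one. The 8 were taken because their media did not overlap, which a large offset works against. This contrast therefore follows in part from the choice. The difference between media departed between these sets of arrays for 1 member, against 46.4% of all genes. That member was rps1401, with -1.23 in replicate 1 and -0.97 over replicates 2 and 3 (interaction -0.27 ± 0.07, adjusted p = 0.0319). The next largest departures were 0.14 for rps401 and 0.13, 0.13, 0.13 and 0.12 for rps1501, rps601, rps2802 and rps1802, none past the test (adjusted p from 0.0838 to 0.24). Replicate 1 has a single array per medium, and the test takes its arrays to vary like the others.

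**Figure D4:**
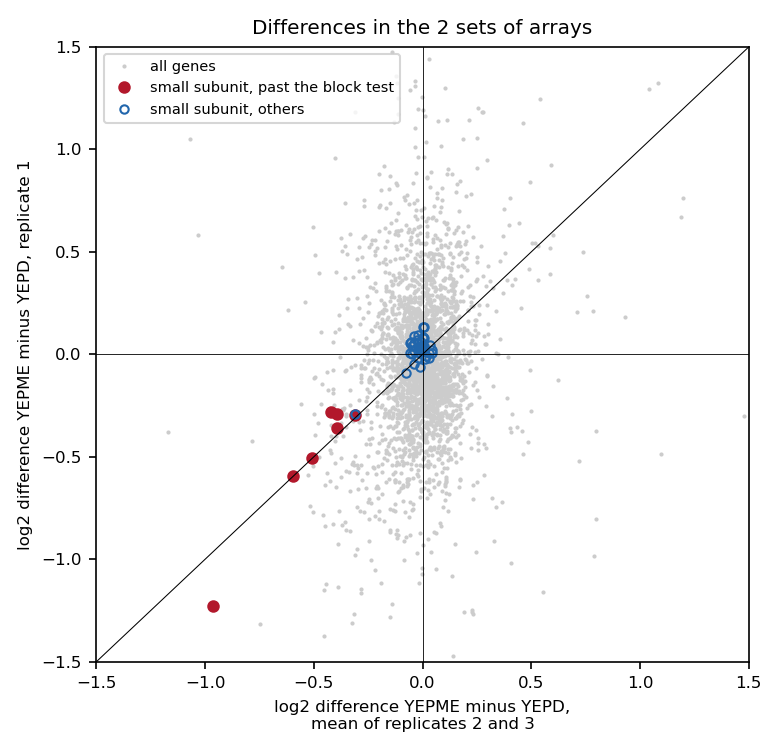
Log2 difference between YEPME and YEPD in replicate 1 (vertical) against the mean of replicates 2 and 3 (horizontal) for 2896 genes, with the diagonal marking equal differences; 27 genes lie beyond the axes. Red points are the 7 small-subunit genes past the test with replicate 1 as a block, open blue points the other 38; the red points lie near the diagonal, with rps1401 farthest out, and all genes together spread more along the vertical axis.

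All members gave bright signals. The lowest value was 11.40, against background limits of 4.78 to 5.60 (95th percentile of the probe sets for budding yeast genes), and 43 to 45 of the 45 were in the top 10% of genes on each array. The brightest gene of an array reached 14.15 to 14.83 and the brightest member 14.38. Whether probes this bright respond in proportion to RNA was not tested.

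Of the 67 large-subunit genes, 6 fell and 0 rose in limma with the block, against 1.31% and 0.76% of all genes. At an unadjusted p under 0.05, 7 were lower and 0 higher, against 261 and 217 of all 2896 genes. For 7 large-subunit genes the media did not overlap, all lower in YEPME, against 2.94% of all genes. A fall of some genes, with none rising, was thus seen in both subunits. The median difference of the large-subunit genes was 0.00, against 0.00 for the 45 small-subunit genes and -0.01 over all genes. rpl1603, rpl3201, rpl101 and rpl3002 fell by 0.66, 0.55, 0.49 and 0.42, while rpl1001 differed by 0.01. Of 32 large-subunit paralogue pairs, 6 had ratios that did not overlap between media, against 7 of 19 in the small subunit, a difference that was not tested.

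Genes that assemble, load or regulate the small subunit were described from lists. Of 18 measured small-subunit assembly genes, 3 fell and 0 rose with the block (median -0.25), against 1.31% and 0.76% of all genes. At an unadjusted p under 0.05, 10 were lower and 0 higher, against 261 and 217 of all 2896 genes. Of the 3, mis3, for an RNA-binding assembly factor, fell by 0.59, rok1, for an RNA helicase, by 0.33, and utp13, of the small-subunit processome, by 0.31. snu13, at the highest level of the list, differed by -0.01. Within replicates 2 and 3, 15 of the 18 fell, against 8.7% of all genes. For 13 the difference departed between replicate 1 and replicates 2 and 3, against 46.4% of all genes (median -0.12 in replicate 1, and -0.31 and -0.29 in replicates 2 and 3). Levels of all 18 were lower in replicate 1, by a median of 1.23, against 36% of all genes, whereas the small-subunit genes had a median offset of 0.19. For 0 of the 18 did the 6 arrays separate by medium, against 2.94% of all genes lower and 2.76% higher. With an offset so much larger than the difference they hardly could, so this count decides nothing. Of 19 measured genes of the translation initiation list, 1 fell and 0 rose with the block (median -0.03), against 1.31% and 0.76% of all genes. A count of 1 does not set the list apart. At an unadjusted p under 0.05, 3 were lower and 0 higher, against 261 and 217 of all 2896 genes. Within replicates 2 and 3, 2 of the 19 were called lower and 0 higher, against 8.7% and 6.91% of all genes. The 1 past the block fit was sla1, for an RNA-binding protein of the La family, with a fall of 0.36. No gene named for an initiation factor passed that fit. tif212 differed by 0.01. Of 24 genes of growth signalling and of factors known or proposed to act on ribosomal protein genes, 0 passed limma in either direction with the block (median -0.01). With 1.31% of all genes falling and 0.76% rising, a count of 0 is near these shares. At an unadjusted p under 0.05, 3 were higher and 0 lower, against 217 and 261 of all 2896 genes. Their differences ran from -0.28 to 0.58, and the casein kinase gene cka1, at the highest level of the list, differed by 0.11. Within replicates 2 and 3, 2 of the 24 were called higher and 0 lower, against 6.91% and 8.7% of all genes. For 1 the media did not overlap, with YEPME higher, against 2.76% of all genes. 

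Among the 16 nearest protein-coding chromosomal neighbours of the 8 lower genes, 9 were measured, and none next to rps1901, rps2401 or rps2601. The 9 had differences of -0.17 to 0.09 in limma with the block, with a lowest adjusted p of 0.34 and 0 at an unadjusted p under 0.05. Of all genes 2.07% passed this fit, and 478 of 2896 had an unadjusted p under 0.05. With 9 genes, a count of 0 is near these shares and does not set the neighbours apart from other genes. None of these neighbours was itself a member. Members that are neighbours of each other, rps1402 with rps1601, rps27 with rps29 and rps2 with rps20, had differences of -0.01 to 0.04.

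Markers of both mating types gave signal in both media. All 5 measured P cell (h+) and all 8 M cell (h-) markers were above background on every array. With the block, 2 P cell markers and 1 M cell marker rose and 0 fell, against 0.76% and 1.31% of all genes. The median difference was 0.28 for P cell markers and -0.29 for M cell markers. The M cell median was -0.97 in replicate 1, and 0.04 and 0.08 in replicates 2 and 3. The difference departed between these sets of arrays for 7 M cell and 1 P cell markers, against 46.4% of all genes. The summed marker signal (log2) was 12.59 to 12.68 in YEPME and 12.40 to 12.63 in YEPD for P cells, and 12.19 to 12.35 in YEPME and 11.96 to 13.82 in YEPD for M cells. The P cell sum was mostly sxa1, with means of 12.26 in YEPME and 12.18 in YEPD and a difference of 0.07. The dimmer map4 and map3, which rose by 0.52 and 0.39, hardly enter it. The M cell range in YEPD was set by replicate 1. In replicates 2 and 3 the P cell sums were 12.59 and 12.66 in YEPME, against 12.48 and 12.40 in YEPD. The M cell sums there were 12.20 and 12.19 in YEPME, against 11.99 and 11.96 in YEPD. Within these replicates limma called 4 P cell and 2 M cell markers higher and 0 lower, against 6.91% and 8.7% of all genes. The part of the cell mixture in the fall of the 8 small-subunit genes was not tested.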

How the data were processed

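The values deposited by the authors are on the log2 scale and come from RMA and Partek, per the submitters' processing notes. The sources used here give no versions or settings and do not say whether the 6 arrays were processed together. RMA corrects background, normalizes quantiles and summarises probes. Probe sets were named from the platform annotation, matched to RefSeq ASM294v3 by gene number (2893 genes) or symbol (3). The highest-mean probe set stood for a gene (1 member had more than 1). limma 3.58.1 in R 4.3.3 (lmFit, eBayes, two-sided) was fitted to 2896 genes with no block, with replicate 1 as a block, within replicates 2 and 3, and with an interaction. Same-numbered arrays deviated together from their group means (correlations across genes of 0.853, 0.835 and 0.836), but so did unlike numbers 2 and 3 (0.816 both ways), and replicate 1 correlated negatively with both other numbers (-0.843 to -0.836). No label says why. The estimates are equal with and without a block. There are 3 arrays per medium, which limits the precision. The p-values rest on the residual spread of these arrays, which with no block includes the offset of replicate 1. The code was tested on simulated data. Members, lists, block and naming rule (lower genes with their paralogues, the extremes within replicates 2 and 3, and the extremes of the interaction) were chosen with earlier results of these data known.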

Additional observations from a re-analysis of the deposited data

Results flagged for a closer look

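The fall of rps1401 differed between the sets of arrays: it was larger in replicate 1 than over replicates 2 and 3 by 0.27 (interaction -0.27 ± 0.07 on the log2 scale, limma adjusted p = 0.0319). The gene was lower in YEPME in each of the 3 pairs.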

How the results depend on the processing

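Counts are of the 45 members past limma. With no block the count stayed 0 under every alternative, the replicate number as a block (0) and the arrays left out (0 to 0) included, with 4 to 8 members at an unadjusted p under 0.05. With replicate 1 as a block, 7 became 0 at an adjusted p under 0.01, 6 under quantile normalization, 8 with trend and robust settings, and 0 to 8 with 1 array left out. Within replicates 2 and 3, 8 became 1 to 8 with 1 array left out. For the interaction, 1 became 0 under quantile normalization and 13 with trend and robust settings. The causes were not tested, beyond the fewer arrays of some fits. The 7 paralogue pairs whose ratios do not overlap became 13 within replicates 2 and 3 and 8 to 13 with 1 replicate left out; fewer arrays overlap more rarely. Of 96 values of the 8 lower genes under alternatives of the block fit, 57 stayed on their side of the threshold. Another 36 were no longer past it and 3 newly passed. No difference changed direction, but these genes were taken because all their YEPME values lay below all their YEPD values. Leaving out an array could therefore not turn a direction. Leaving out YEPME replicate 1 or YEPD replicate 1 gave the same fit, that within replicates 2 and 3, so its values are counted again among the 96. The fit over every annotated probe set was added after the data were seen. On every array each member lay above the background limit.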
